A study of Mus musculus with 4 samples.

Results

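The insulin-like growth factor (IGF) system was followed through 9 genes: the ligands Igf1 and Igf2, the receptor Igf1r, and the binding proteins Igfbp2, Igfbp3, Igfbp4, Igfbp5, Igfbp6 and Igfbp7. They were chosen by name as the ligands, the signalling receptor and the family of secreted binding proteins, out of 32286 genes in the count tables, and all 9 were detected. Igfbp1, a binding protein of liver, was kept in a separate list of IGF pathway genes. The data were single-cell RNA sequencing of lungs from 4 adult mice collected 14 days after bleomycin (0.8 U/kg), an injury that leads to lung fibrosis. The study compared 2 Tubb3-/- mice with 2 wild-type (WT) littermates, and every mouse of both groups received bleomycin, so there was no uninjured group. Tubb3 encodes β-III tubulin (Tuj1), and the Tubb3-/- mice were homozygous for a Cre knock-in at the Tubb3 start codon, so they lacked the gene in all cells and not only in mural cells, the pericytes and smooth muscle cells around vessels. Each lung gave 2 libraries, split by tag from pools of all 4 mice. The first held whole cells after removal of TER-119+ red cells. The second was a mural cell-enriched mesenchymal fraction without CD31+, CD45+ and EpCAM+ cells, in which MCAM+ PDGFRα- cells and MCAM- cells were mixed in equal parts. Mouse 1 of each genotype was male and mouse 2 female, by the levels of sex-linked genes, so sex and mouse number cannot be told apart.

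IGF1 and IGF2 are secreted growth factors that bind the receptor tyrosine kinase encoded by Igf1r, which signals through insulin receptor substrates to the PI3K and MAPK pathways. Most of the circulating ligand comes from the liver, while in tissues it is made locally, mainly by mesenchymal cells and macrophages. The binding proteins hold the ligands outside the cell with high affinity, which can block, store or carry them, and proteases such as those of the pappalysin family release the ligand again. IGFBP7 is an exception among them, with a low affinity for IGFs and a place in the matrix of blood vessels. In mm10, Igfbp2 (chr1:72824503-72852474) and Igfbp5 (chr1:72857932-72874884) lie next to each other, in opposite directions and 5458 bp apart. Igf1 lies at chr10:87858265-87937042, Igf2 at chr7:142650766-142666816 and Igf1r at chr7:67952827-68233668. Igfbp3 lies at chr11:7206086-7213923, Igfbp4 at chr11:99041244-99054392, Igfbp6 at chr15:102144362-102149511 and Igfbp7 at chr5:77349240-77408041. Genes on the opposite strand that overlap Igf1, Igf2 and Igfbp7 were counted on their own; the largest was Polr2b, with 10288 UMIs.

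Of 32121 deposited cells, 29910 were kept. A cell was placed in a lineage by 1 or more unique molecular identifiers (UMIs) of a gate gene: Ptprc for immune, Cdh5 for endothelial, Epcam for epithelial, Msln for mesothelial, Higd1b or Myh11 for mural and Pdgfra for fibroblast cells. This left 4369 immune, 4487 mural, 3784 fibroblast, 2274 endothelial, 322 mesothelial and 321 epithelial cells. The gate genes put 13595 cells (45.5%) in several lineages, and these were dropped; 5610 of them carried both Pdgfra and Myh11. A further 758 cells carried none of the gate genes. Levels are in CPM, the UMI count of a gene scaled to the same total count of all genes for each sum of the cells of one lineage and mouse; the sums held between 1004521 and 21169277 UMIs. All 5 fixed markers of a lineage were highest in their own lineage, except that 1 fibroblast marker, Dcn, was higher in mesothelial cells. Median gene UMIs per cell ranged from 9186 to 16299 over the 8 libraries and were higher in the Tubb3-/- than in the WT libraries of each pool. No cell barcode was shared between libraries of the same pool, as each pool was split by tag. As a check of the labels, Tubb3 was at 4.04 and 2.38 CPM in WT mice and at 0.532 and 0.513 CPM in Tubb3-/- mice over all kept cells.

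The 9 genes had their highest levels in different lineages. Fibroblasts held the highest Igf1, Igfbp3, Igfbp4 and Igfbp7, mesothelial cells the highest Igfbp5 and Igfbp6, mural cells the highest Igf1r and Igf2, and epithelial cells the highest Igfbp2, by the median over the 4 mice. No member was highest in endothelial or immune cells. In a fit of each lineage against the mean of the other 5, with mouse as a block, 5 members were called higher in fibroblasts, where 31.2% of all genes tested were called higher. In mural cells 6 were called higher against a background of 30.6%, and in mesothelial cells 4 against 19.4%. One member was called higher in endothelial cells and 1 in epithelial cells, against 29.9% and 27.6% of all genes. None was called higher in immune cells, where 39.3% of genes were, and where 8 of the 9 members, all but Igf1, were called lower against 34.6% of all genes.

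**Figure D1:**
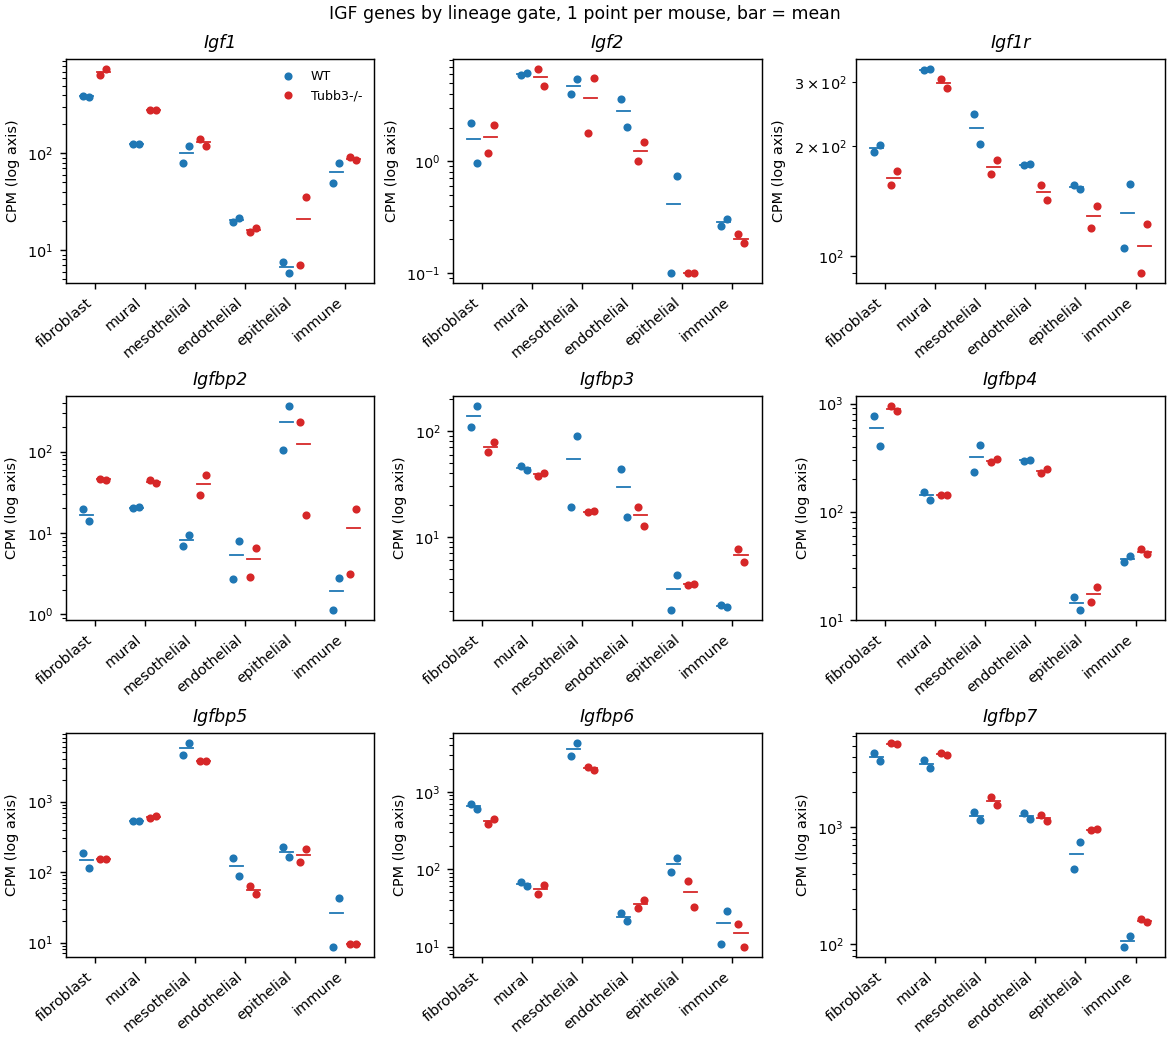
Levels of the 9 members in the 6 lineages. Each point is 1 mouse (WT blue, Tubb3-/- red) and each bar is the mean of the mice of 1 genotype. The axis is CPM on a log scale, and values under 0.1 CPM are drawn at 0.1. Igf1 is highest in fibroblasts and lowest in epithelial cells by the median, while Igf1r stays between 89.8 and 326 CPM in every lineage and Igfbp5 and Igfbp6 stand out in mesothelial cells.

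The ligand Igf1 was at 395 and 385 CPM in fibroblasts of WT mice and at 645 and 740.3 CPM in those of Tubb3-/- mice, more than any other lineage in any mouse. Mural cells followed at 126, 124, 279 and 283 CPM, given here and below in the order WT mouse 1, WT mouse 2, Tubb3-/- mouse 1 and Tubb3-/- mouse 2. The lowest fibroblast value was above the highest mural value, whereas the mural, mesothelial (79.6, 119.8, 142 and 120.3 CPM) and immune ranges (49.7, 78.7, 91.0 and 84.8 CPM) overlapped from each to the next. Most of the mural Igf1 came from the minority of gated cells that lay in fibroblast-like clusters, described below, and the gated cells in mural-like clusters held 23.3 to 31.9 CPM. With lineages from clusters mural cells held 28.9 to 39.2 CPM of Igf1, below every mesothelial (64.0 to 137 CPM) and immune sum (59.3 to 99.6 CPM) of that assignment. With the gates, endothelial cells lay at 15.3 to 21.6 CPM and epithelial cells at 5.83 to 35.3 CPM. The fibroblast contrast was 3.47 ± 0.16 (log2 fold change ± SE, adjusted p = 2.33e-14, edgeR) and the mural contrast 1.64 ± 0.18 (adjusted p = 4.51e-08). With lineages from clusters the mural contrast turned to -0.96 ± 0.18 (adjusted p = 6.61e-05), so the second rank of mural cells held only for the gate. Igf2, a ligand mostly of the fetus, was scarce throughout. It reached 5.87, 6.21, 6.65 and 4.71 CPM in mural cells and 1.79 to 5.51 CPM in mesothelial cells, and every sum of fibroblast, endothelial, immune or epithelial cells was below the lowest mural value. Its mural contrast was 2.76 ± 0.26 (adjusted p = 5.21e-09).

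The receptor Igf1r was the most evenly spread member. Mural cells held 324, 326, 307 and 289 CPM, above every sum of the other lineages, and the contrast was 1.03 ± 0.08 (adjusted p = 1.22e-10). The ranges of the other 5 lineages overlapped from each to the next, from 168 to 246 CPM in mesothelial cells down to 89.8 to 157 CPM in immune cells. As a ratio of medians, the top and the bottom lineage differed by less for Igf1r than for any of the secreted members.

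Among the binding proteins, Igfbp7 and Igfbp4 shared the fibroblast peak of Igf1. Igfbp7 was at 4305, 3693, 5221 and 5126 CPM in fibroblasts and at 3790.2, 3204, 4346 and 4140.0 CPM in mural cells, ranges that overlapped. It was called higher in both (2.44 ± 0.10 and 2.05 ± 0.10), lay between 1138 and 1834 CPM in mesothelial and endothelial cells, and was lowest in immune cells at 95.1 to 164 CPM. Igfbp4 was at 773, 406, 943 and 855 CPM in fibroblasts (3.11 ± 0.13), and was also called higher in mesothelial (1.30 ± 0.16) and endothelial cells (1.10 ± 0.15). Igfbp3, the main carrier of IGFs in serum, was at 108, 172, 62.7 and 78.8 CPM in fibroblasts (2.997 ± 0.27) and at 37.9 to 47.2 CPM in mural cells (1.42 ± 0.31). Igfbp3 was at most 7.71 CPM in every epithelial and immune sum. With lineages from clusters mural Igfbp3 was at 18.6, 36.0, 17.4 and 22.3 CPM, below every mural sum of the gate.

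Igfbp5 and Igfbp6 were highest in the mesothelium, the sheet of cells that covers the lung. Mesothelial Igfbp5 was at 4652, 6705, 3818 and 3769 CPM, and mural cells came next at 525, 526, 581 and 629 CPM. Mesothelial Igfbp6 was at 2906, 4227, 2118 and 1935 CPM, followed by fibroblasts at 694, 604, 389 and 439.9 CPM. For both genes the mesothelial range did not reach the next lineage, with contrasts of 5.11 ± 0.22 and 5.15 ± 0.18. The second lineages differed: Igfbp5 was called higher in mural cells (1.74 ± 0.24) but not in fibroblasts (-0.44 ± 0.28, adjusted p = 0.191), and Igfbp6 was called higher in fibroblasts (2.64 ± 0.19) and lower in mural cells (-1.19 ± 0.25). Mesothelial cells were few, 72 to 102 per mouse.

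Igfbp2 was the one member led by epithelial cells, at 105, 361, 232 and 16.6 CPM, with a contrast of 3.68 ± 0.47 (adjusted p = 5.13e-07). The spread among the 4 mice was wide, and the lowest of them was within the range of fibroblasts, at 19.5, 13.8, 46.3 and 45.2 CPM. The epithelial gate held 72 to 87 cells per mouse. When cells were instead assigned by clusters named from the fixed markers, an alternative added after the data were seen, epithelial Igfbp2 was at 212, 437, 259 and 209 CPM, and the low value of Tubb3-/- mouse 2 was no longer there.

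Transcripts free in the suspension can add UMIs to any cell. In immune cells the 5 fibroblast markers lay at medians of 2.47% to 6.19% of their fibroblast levels, and Igfbp7 at 3.09%, within that range. Igfbp3, Igfbp4 and Igfbp6 had medians of 4.70%, 4.76% and 3.52%, also within it, so their levels in immune cells are not read here as expression. Igf1 in immune cells was at 13.3% of its fibroblast level and Igf1r at 64.5%, both above every fibroblast marker. The medians of Igf2 (15.3%), Igfbp2 (13.4%) and Igfbp5 (6.21%) were above every marker median as well. Immune Igf2 was at only 0.183 to 0.306 CPM, so a share above the markers is not by itself read as expression. In endothelial cells Igf1 was at 3.63%, and Igfbp6 at 5.95%, both within the range of 3.39% to 10.5% for the markers, whereas Igfbp7 was at 27.6% and Igfbp4 at 33.9%. After thinning each cell to 2000 UMIs, Igf1 was detected in 42.2% to 61.6% of fibroblasts and in 5.56% to 7.43% of immune cells, and in 0% to 4.23% of epithelial cells, which carry low Igf1. Without thinning these shares were 87.5% to 94.9%, 15.5% to 21.0% and 8.64% to 22.2%; 146 WT and 142 Tubb3-/- cells with fewer UMIs were left out of the thinned shares.

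Within lineages, several members differed between subsets of cells. Subsets were cells of a lineage with a UMI of a further gate gene. Igfbp7 was at 6399, 6059, 5468 and 5678 CPM in Ednrb-positive endothelial cells, the gene of the endothelin B receptor found on aerocyte capillaries, and at 705, 426, 606 and 527 CPM in Gpihbp1-positive cells of the general capillaries. Igfbp4 was the other way around, at 43.6, 16.0, 33.8 and 14.2 CPM in the Ednrb-positive and at 226, 262, 190.0 and 215 CPM in the Gpihbp1-positive cells. Neither pair of ranges overlapped, and the sums held 26 to 40 Ednrb-positive and 217 to 407 Gpihbp1-positive cells per mouse. In Gja5-positive cells, a gap junction gene of arteries, Igfbp4 was at 1644, 1328, 2063 and 909.5 CPM, from only 5 to 15 cells per mouse. Igfbp5 in Slc6a2-positive endothelial cells, a vein marker, was at 2522, 1515, 383 and 13.9 CPM with 2 to 9 cells per mouse, too few to compare.

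Igf1r was uneven among immune cells. In S100a8-positive cells, which are mainly neutrophils, it was at 389.6, 607, 431 and 552 CPM, the highest of the immune subsets in each mouse. Cd3e-positive T cells followed at 139, 316, 146 and 181 CPM, Csf1r-positive monocytes and macrophages were at 77.7, 63.6, 73.6 and 86.2 CPM, and Cd79a-positive B cells were lowest at 20.5, 23.8, 33.4 and 50.7 CPM. Igf1 was highest in the Csf1r-positive cells in each mouse, at 97.2, 106, 128 and 87.6 CPM, above the S100a8-positive cells at 22.4, 62.3, 96.9 and 32.4 CPM. T cells and B cells held 10.3 to 18.5 CPM in every mouse.

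Fibroblast subsets also differed. Pi16-positive fibroblasts, the adventitial type, held 2064, 1708, 2388 and 2166 CPM of Igfbp4 and 1201, 1323, 963 and 1163 CPM of Igfbp6. Npnt-positive fibroblasts, the alveolar type, held 485, 196, 798 and 730.3 CPM of Igfbp4 and 478, 401, 275 and 247 CPM of Igfbp6, lower for both genes in every mouse than the 18 to 42 Pi16-positive cells. Hhip-positive fibroblasts, a gene of peribronchial cells and myofibroblasts, held the most Igfbp5, at 849, 1555, 1498 and 1176 CPM from 3 to 14 cells per mouse. With cells assigned by clusters the same subset had 54 to 122 cells and Igfbp5 was at 1855, 1178, 1975 and 2061 CPM. In the epithelium, Rtkn2-positive cells, of the alveolar type I and 8 to 16 per mouse, held 337, 1823, 1570.1 and 0 CPM of Igfbp2, and Lamp3-positive type II cells at most 11.1 CPM. In the cluster assignment the Rtkn2-positive cells were at 1578, 2361, 1595 and 1476 CPM, close in all 4 mice. Foxj1-positive ciliated cells were the epithelial subset with the most Igfbp5, at 775, 1079.9, 560.4 and 962 CPM, from only 12, 2, 7 and 8 cells.

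**Figure D2:**
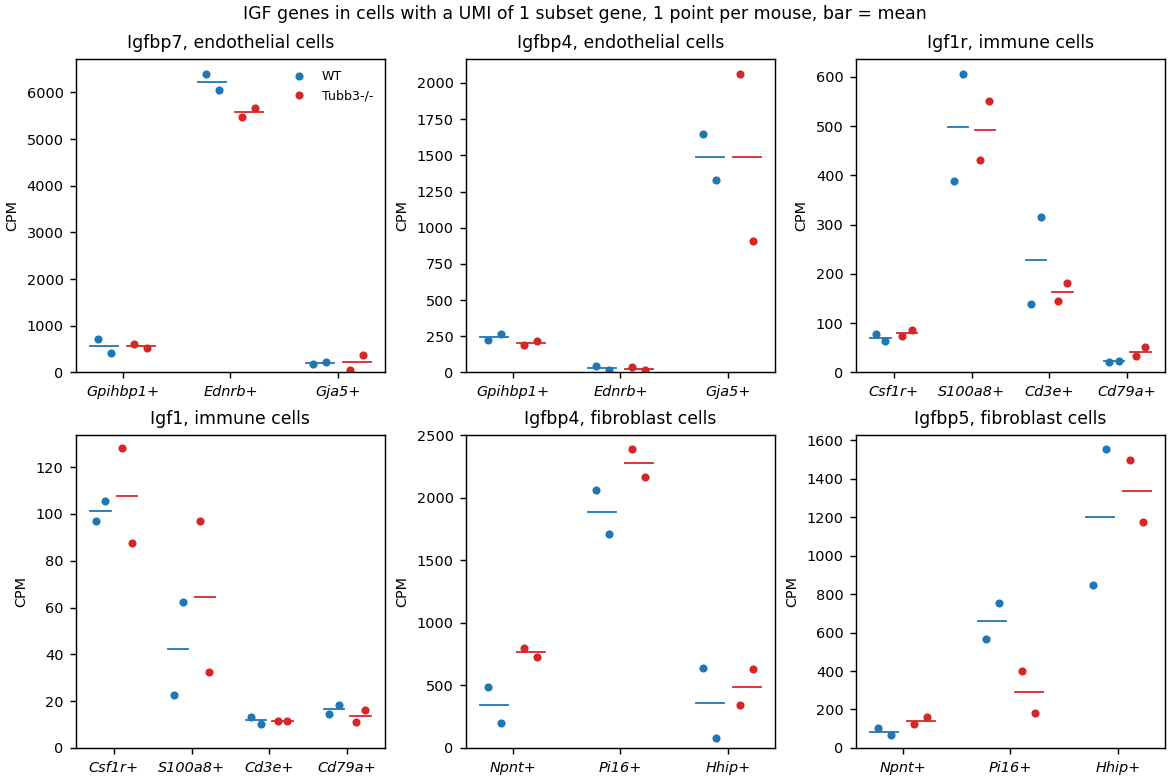
Levels of selected members in subsets of endothelial, immune and fibroblast cells, in CPM on a linear axis from 0, 1 point per mouse (WT blue, Tubb3-/- red) with the mean as a bar. Igfbp7 is at 5468 CPM or more in Ednrb-positive and at 705 CPM or less in Gpihbp1-positive endothelial cells, and Igf1r is highest in S100a8-positive immune cells.

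Whether loss of Tubb3 went with a change of the IGF genes was tested between the 2 Tubb3-/- and the 2 WT mice. In the 6 lineages and in all cells of the whole-cell libraries, no member passed an adjusted p of 0.05 (edgeR quasi-likelihood test, Benjamini-Hochberg over all genes). The percentage of all genes called was 0 in fibroblast, mural, endothelial, epithelial and immune cells and in the whole lung, and 0.231 in mesothelial cells. The fit had no term for the mouse number or for sex, which go together here, so a difference between the sexes stayed in its spread. With the mouse number as a term the number of members called changed in several lineages, as given below. An unadjusted p under 0.05 was found for 5 of 9 members in fibroblasts (18.1% of all genes), 2 of 9 in mural cells (10.9%), 5 of 8 in mesothelial cells (8.37%) and 3 of 9 in endothelial cells (13.6%). It was found for 2 of 7 in epithelial cells (4.26%), 3 of 8 in immune cells (8.27%) and 5 of 9 in the whole lung (15.9%). DESeq2 called 4 members in fibroblasts, where it called 3.44% of all genes, 2 in mural cells (1.1%), 2 in mesothelial cells (0.378%), 1 in endothelial cells (0.96%) and 3 in the whole lung (3.68%). It called 0 members in epithelial cells (0.0288%) and immune cells (0.491%). With 2 mice per genotype and only the spread between these mice, the folds below are given for members with a mean of at least 10 CPM whose Tubb3-/- mice both lay on one side of both WT mice.

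In fibroblasts 7 of the 8 members at this level had non-overlapping genotypes, where 51.7% of all genes at this level did. Igf1 was higher in both Tubb3-/- mice, by 0.82 ± 0.12 (log2 fold change ± SE, adjusted p = 0.0835), and Igfbp2 by 1.44 ± 0.19 (adjusted p = 0.0822). Igfbp4 (0.59 ± 0.32) and Igfbp7 (0.36 ± 0.18) were higher in both with larger relative errors. Igfbp3 was lower in both, at -0.98 ± 0.20 (adjusted p = 0.118), as were Igfbp6 at -0.66 ± 0.14 (adjusted p = 0.123) and Igf1r at -0.28 ± 0.09 (adjusted p = 0.209). The members therefore did not move as a block: the ligand was on the higher side, and the binding proteins were split 3 to 2 between the sides. Igfbp5 overlapped with the gate. With lineages from clusters it was at 261, 170, 281 and 299 CPM, higher in both Tubb3-/- mice. With the gate, the median over all 9 tested members was 0.03 and over all genes -0.0043. DESeq2 called Igf1, Igfbp2, Igfbp3 and Igfbp6, in these directions. Without WT mouse 1 edgeR called 5 members and 6.6% of all genes in fibroblasts, without WT mouse 2 it called 4 members and 3.65% of all genes, and without either Tubb3-/- mouse it called 0 members. All 5 mural markers had UMIs in the fibroblast gate, and their sum was 578, 643, 1299 and 940 CPM, higher in both Tubb3-/- mice. Its part in these folds was not tested.

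The test reached its threshold in Npnt-positive fibroblasts, with 174 to 257 cells per mouse, where 1.31% of all genes were called. Igf1 was at 303, 293, 505 and 609 CPM there, so both Tubb3-/- mice were above both WT mice, and rose by 0.90 ± 0.16 (adjusted p = 0.0361). Igfbp3 was at 143, 239, 32.7 and 72.0 CPM and fell by 1.87 on the log2 scale (SE 0.33, adjusted p = 0.0356). These 2 of the 8 members tested were called, and 7 of the 8 members at or above 10 CPM did not overlap, against 46.5% of all genes. Igfbp6 missed the threshold at -0.76 ± 0.17 (adjusted p = 0.0730), as did Igfbp4 at 1.15 ± 0.36 (adjusted p = 0.166). The unadjusted p was under 0.05 for 7 of the 8, against 14.8% of all genes, and DESeq2 called 2, Igf1 and Igfbp6, where it called 1.72% of all genes. The 5 mural markers summed to 702, 656, 1163 and 860 CPM in these cells, higher in both Tubb3-/- mice. Without Tubb3-/- mouse 1 no member was called, with Igf1 at 1.02 (adjusted p = 0.232) and Igfbp3 at -1.41 (adjusted p = 0.245). With cells from clusters Igf1 was at 0.88 (adjusted p = 0.0666) and Igfbp3 at -1.68 (adjusted p = 0.109), neither called. In Cthrc1-positive fibroblasts, the matrix-producing state of fibrosis, there were 4 to 18 cells per mouse, 0.0354% of all genes were called, and none of the 8 members tested. DESeq2 called none there either, and none had an unadjusted p under 0.05. Igf1 was at 1241, 1013, 352 and 737 CPM there, with both Tubb3-/- mice below both WT mice (-0.93 ± 0.41, adjusted p = 0.643), the other side from the Npnt-positive cells. Igf1r was also lower in both, at -0.41 ± 0.35 (adjusted p = 0.820).

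**Figure D3:**
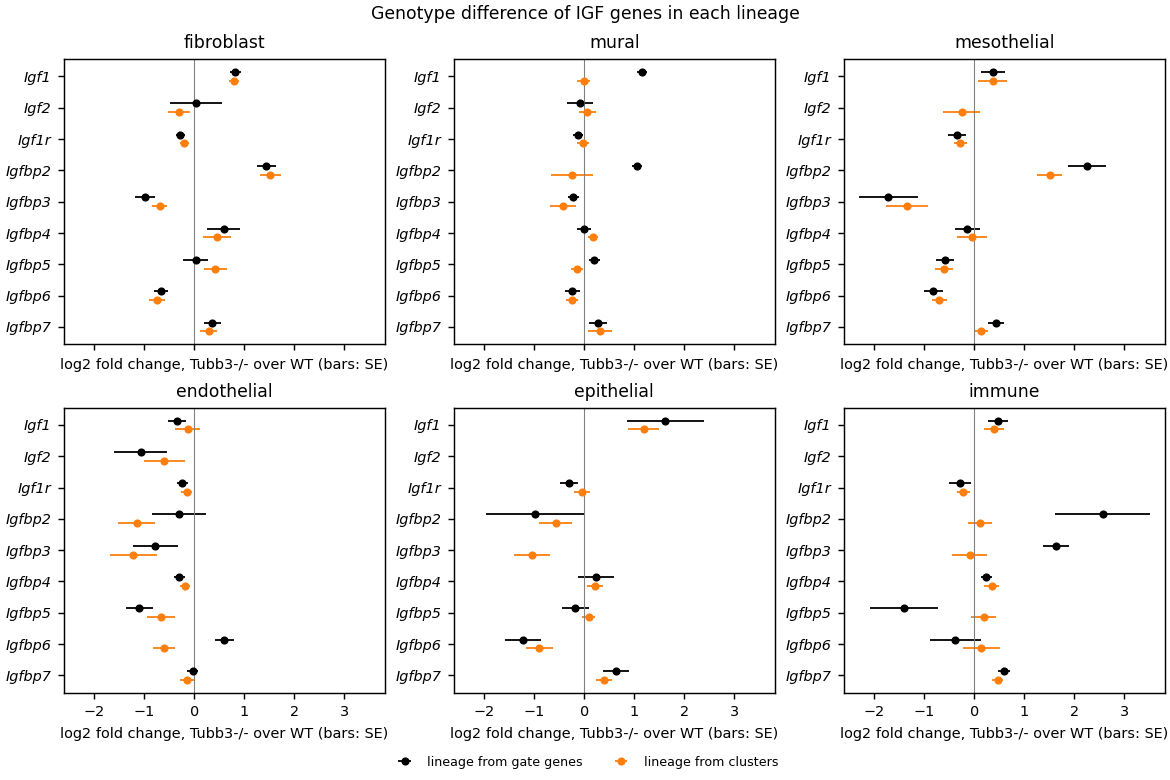
Difference between Tubb3-/- and WT mice for each member in the 6 lineages, as log2 fold change with its standard error (edgeR, 2 mice per genotype). Black points use the gate genes and orange points the cluster-based lineages; Igf1 and Igfbp2 in mural cells lie above 1 with the gate and near or below 0 with the clusters.

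In mural cells, Igf1 was 1.16 ± 0.10 higher (adjusted p = 0.132) and Igfbp2, at 20.2, 20.7, 44.1 and 41.4 CPM, 1.06 ± 0.10 higher (adjusted p = 0.133). Both had genotype ranges well apart, and 6 of 8 members at this level did not overlap, against 42.5% of all genes. In the Myh11-positive cells without Higd1b, which made up most of the gate, both passed the test, where 0.665% of all genes were called. Igf1 was at 129, 137, 300.3 and 313 CPM and rose by 1.20 ± 0.08 (adjusted p = 0.00775). Igfbp2 was at 20.7, 23.0, 45.2 and 45.9 CPM and rose by 1.05 ± 0.09 (adjusted p = 0.0175). These were 2 of 9 members tested, and 6 of 8 members did not overlap, against 46.0% of all genes. DESeq2, which called 1.79% of all genes, also called 2. Cells with Higd1b, a pericyte gene, and no Myh11 numbered only 4 to 16 per mouse. Of 4487 gated cells, 3991 carried only Myh11 and 41 only Higd1b, and cells with both genes were in neither subset. A Myh11 UMI was found in 44.1% of all kept cells, so the Higd1b-only cells do not stand for all pericytes. Neither edgeR nor DESeq2 called any of the 3 members tested in the Higd1b-only cells. The percentage of all genes called there was 0, and no member had an unadjusted p under 0.05.

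Where in the mural gate the Igf1 lay was measured by clustering the cells without the 9 members. Cells of the gate that fell in fibroblast-like clusters made up 14.4%, 12.2%, 19.2% and 19.2% of the gated cells and held 84.6%, 77.2%, 93.2% and 92.8% of its Igf1 UMIs. In them Igf1 was at 609, 629, 971 and 986 CPM and Igfbp2 at 58.9, 46.7, 128 and 127 CPM, and both Tubb3-/- mice were above both WT mice. In the gated cells of mural-like clusters Igf1 was at 23.3, 31.9, 24.2 and 27.2 CPM and Igfbp2 at 10.3, 7.85, 10.3 and 9.31 CPM, and the genotypes overlapped. Fitted on those cells alone, the Myh11-positive subset gave Igf1 at -0.13 (adjusted p = 0.892) and Igfbp2 at 0.16 (adjusted p = 0.925), and 0 of the members were called. The lineage of mural-like clusters as a whole gave 30.9, 38.0, 28.9 and 39.2 CPM of Igf1. All 5 fibroblast markers had UMIs in the mural gate, and their sum was 4383, 3882, 7163 and 6889 CPM, higher in both Tubb3-/- mice as Igf1 was. Igfbp7, by contrast, was not low in mural-like cells of the gate, at 4017, 3274, 4664 and 4449 CPM, and Igf1r there was at 344, 344, 341 and 328 CPM.

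**Figure D4:**
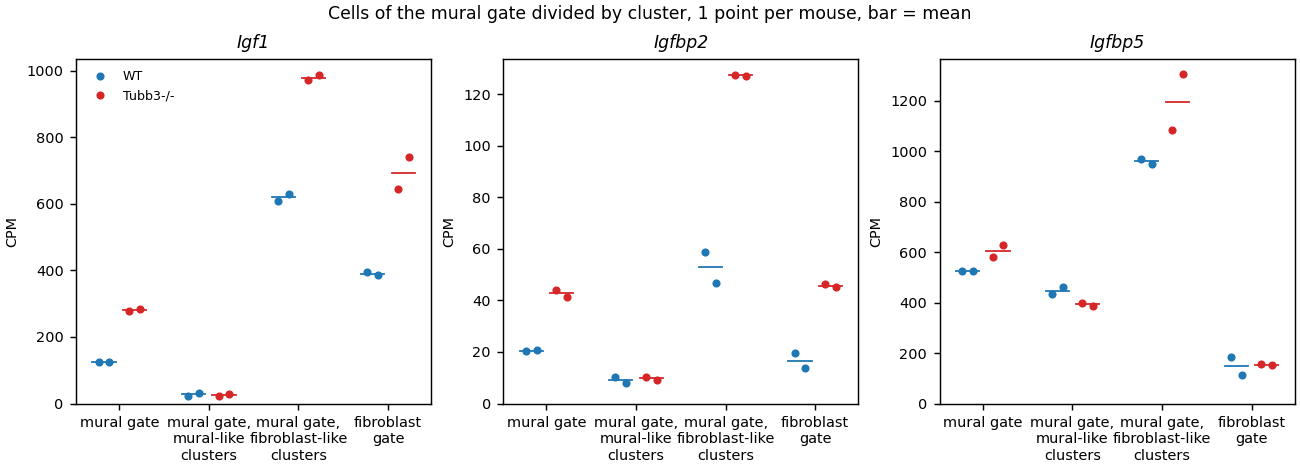
Igf1, Igfbp2 and Igfbp5 in the mural gate, in its cells from mural-like clusters, in its cells from fibroblast-like clusters and in the fibroblast gate, in CPM on a linear axis, 1 point per mouse (WT blue, Tubb3-/- red). Igf1 is between 23.3 and 31.9 CPM in the mural-like cells of all 4 mice and between 609 and 986 CPM in the fibroblast-like cells.

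In mesothelial cells, 7 of 8 members did not overlap between the genotypes, against 37.8% of all genes. Igfbp2 was at 6.97, 9.47, 29.6 and 51.4 CPM, 2.25 ± 0.38 higher in Tubb3-/- mice (adjusted p = 0.0684). The mesothelial genes themselves lay on the lower side, Igfbp6 at -0.82 ± 0.19 (adjusted p = 0.173) and Igfbp5 at -0.58 ± 0.17 (adjusted p = 0.307). Igfbp3, at 18.9, 89.3, 17.0 and 17.5 CPM, was at -1.72 ± 0.60 (adjusted p = 0.426), and without WT mouse 2, whose value was high, the fold was -0.12. The 5 fibroblast markers summed to 5325, 5743, 8505 and 7420 CPM in the same cells, higher in both Tubb3-/- mice, and the 5 mesothelial markers to 2922, 3561, 2517 and 2527 CPM, lower in both. Their part in these folds was not tested. The number of mesothelial members called depended on which mouse was left out. Over all settings, mesothelial calls over all genes ranged from 0 to 344, so this number is not read as a result about the members.

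In endothelial cells 5 of 7 members did not overlap, against 46.8% of all genes, and 4 of these 5 were on the lower side in Tubb3-/- mice. Igfbp5, at 159.5, 87.7, 63.3 and 48.8 CPM, was at -1.10 ± 0.27 (adjusted p = 0.164), and Igfbp4 at -0.30 ± 0.11 (adjusted p = 0.280). With lineages from clusters endothelial Igfbp5 was at 142, 68.8, 72.4 and 55.1 CPM, and the genotypes overlapped. An Igfbp5 UMI was found in 10.3%, 12.9%, 13.7% and 12.5% of the gated endothelial cells, without thinning. In the enriched libraries alone endothelial Igfbp5 was at 1.21, the other direction, and Igfbp6, at 0.60 ± 0.19 over both pools, was at -0.98 in the whole-cell libraries. In epithelial cells 3 of 7 members did not overlap, against 34.2%: Igfbp7 at 0.64 ± 0.27, Igf1r at -0.31 ± 0.18 and Igfbp6 at -1.22 ± 0.36, each with an adjusted p of 0.979. All 5 fibroblast and all 5 mural markers had UMIs in the epithelial gate, and their sums were 244, 307, 344 and 607 CPM and 137, 161, 188 and 219 CPM, both higher in both Tubb3-/- mice. Their part in these folds was not tested.

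In immune cells 3 of 6 members did not overlap, against 41.5% of all genes. Igf1 was 0.47 ± 0.20 higher in Tubb3-/- mice (adjusted p = 0.607), and Igfbp7 0.60 ± 0.12 higher (adjusted p = 0.360). All 5 fibroblast markers had UMIs in immune cells, and their sum was 255, 376, 542 and 395 CPM, again higher in both Tubb3-/- mice. Among the Csf1r-positive immune cells, where 0.03% of all genes were called, none of the 6 members tested was called by edgeR or DESeq2, none had an unadjusted p under 0.05, and every member overlapped. The difference of the genotype effects between fibroblasts and all immune cells, of which 743 of 4369 carried Csf1r, was tested itself. Where 0.0802% of all genes were called, no member was, by edgeR or DESeq2, and 2 of the 9, Igfbp3 and Igfbp5, had an unadjusted p under 0.05. For Igf1 the difference, fibroblast minus immune, was 0.32 ± 0.38 (adjusted p = 0.957), and for Igfbp3 it was -2.59 ± 0.67 (adjusted p = 0.194, edgeR). Immune Igfbp3 was at only 2.26, 2.14, 7.71 and 5.77 CPM. Its median share of the fibroblast level, 4.70%, was within the range of the fibroblast markers, so the immune side is not read as expression.

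Over all cells of the whole-cell libraries, Igf1 was at 116, 125, 233 and 245 CPM, 1.00 ± 0.07 higher in Tubb3-/- mice (adjusted p = 0.133). Igfbp7, at 1298, 1189, 1977 and 1764 CPM, was 0.60 ± 0.14 higher (adjusted p = 0.186), and Igfbp6, at 216, 256, 166 and 159.9 CPM, was at -0.52 ± 0.10 (adjusted p = 0.157). Of 8 members 6 did not overlap, against 51.8% of all genes. These sums also hold the numbers of each kind of cell, so a share of cells and a level per cell cannot be told apart in them.

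Of 28 further IGF pathway genes, which cover the insulin and IGF2 receptors, insulin receptor substrates, adaptors, downstream kinases, IGF2 mRNA-binding proteins, and the pappalysins and stanniocalcins, 18 to 26 were tested in each lineage and in the whole lung. With the gate genes only Pappa2 was called. This protease, which cleaves IGFBP3 and IGFBP5, rose in mesothelial cells by 2.998 ± 0.41 (adjusted p = 0.0382) from 7, 5, 36 and 52 UMIs, and in the Myh11-positive mural cells by 1.45 ± 0.18 (adjusted p = 0.0386), at 65.0, 45.6, 163 and 147 CPM. Both Tubb3-/- mice were above both WT mice in each. In the cluster-based lineages Pappa2 was not called (1.28, adjusted p = 0.303, and 0.46, adjusted p = 0.797). In the Myh11-positive cells of mural-like clusters its fold was 0.12. Pappa2 in the mural gate lay mostly in the cells of fibroblast-like clusters, at 356, 248, 551 and 482 CPM. The gated cells of mural-like clusters held 3.81, 3.84, 3.96 and 5.37 CPM. With a gate of 2 UMIs mesothelial Pappa2 was at 0.96 (adjusted p = 0.545), and its call was also lost in the enriched libraries alone (adjusted p = 0.0507) and at a mitochondrial limit of 10% (adjusted p = 0.0515). The Myh11-positive call was lost in the whole-cell libraries alone (adjusted p = 0.0504). In the cluster-based lineages Grb14, an adaptor that inhibits insulin receptor signalling, fell by 0.71 in endothelial cells (SE 0.12, adjusted p = 0.0271), from 52.1 and 53.2 CPM in WT to 29.4 and 33.5 CPM in Tubb3-/- mice; with the gate it was at -0.79 (adjusted p = 0.115). The median log2 fold change of the tested pathway genes was -0.04 in fibroblasts and 0.14 in mesothelial cells, beside -0.0043 and -0.00076 for all genes.

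The genes whose levels most resembled each member over the 24 sums of 4 mice and 6 lineages were found by Pearson correlation of log2(CPM + 1) among 12394 genes, as a description, since sums of one lung share its libraries. For Igf1 they were Angptl4 (r = 0.952), Fcgrt (0.950) and Lrp1 (0.933). For Igfbp6 they were the mesothelial marker Upk1b (0.979), Efemp1 and Zfhx4, and for Igfbp7 Ckap4 (0.981), Pam and Nr2f2. For Igfbp5 they were Kank1 (0.955), Sdsl and Dcbld2, for Igfbp4 Tshz3 (0.960), Rcn1 and Plat, and for Igfbp3 Runx1t1 (0.936), Tmem45a and Sparcl1. The receptor Igf1r was closest to Fos (0.914), Mustn1 and Hoxb3os, and Igf2 to Cpe (0.910), Morf4l1 and Foxc1. Igfbp2 had the weakest likeness, to Cacfd1 (0.884), Ccdc112 and Hsd17b10. No gene was named for more than 1 member.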

How the data were processed

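Single-cell RNA was measured in 8 libraries, a whole-cell and a mural cell-enriched library from each of 2 WT and 2 Tubb3-/- mice. The deposited values are raw UMI counts per gene and cell, which the authors made with Cell Ranger 7.1.0 on mm10 (Chromium 3′ chemistry, mice pooled with CellPlex tags and split by tag). As UMIs are taken at the 3′ end, CPM do not scale with gene length. The methods name scDblFinder for doublet removal in a composition analysis; whether doublets were removed before deposit is not given in the sources used here.

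Libraries were tied to mice by the tag that dominated each file and the tags named in the labels. Cells with 200 to 7500 genes and at most 15% mitochondrial UMIs were kept, the limits given in the methods. Scrublet (in scanpy 1.11.5, expected rate 0.1 per pool, since the default of 0.05 marked only 2 whole cells) removed 219 whole cells and 731 cells of the enriched pool. UMIs were summed per mouse and lineage over both libraries, and cells with gate genes of several lineages were dropped. Sums were tested with edgeR 4.0.16 (filterByExpr, TMM, quasi-likelihood F test, Benjamini-Hochberg over all genes of a fit, threshold 0.05), and DESeq2 1.42.0 served as an alternative. Lineage contrasts and the fibroblast-immune difference came from 1 fit of 24 sums with mouse as a block. Mice were the replicates; cells were not. Leiden clusters (resolution 1.5, 2000 variable genes without the 9 members, named from at least 3 fixed markers) were an alternative added after the data were seen. The code was tested on simulated data.

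Members were named where called, or at a mean of at least 10 CPM with both Tubb3-/- mice on one side of both WT mice; the like genes were the 3 with the highest correlation; pathway genes were named where called. The members, gene lists and rules were chosen with earlier results of these data known. Gene positions came from the GENCODE annotation of mm10. Intervals of single shares were not computed, as each share is given over 4 mice.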

Additional observations from a re-analysis of the deposited data

Results flagged for a closer look

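Several members lay on opposite sides of the WT mice in different lineages, in each case with all mice of both lineages on the stated side. These differences of log2 fold changes were not tested. Igf1 was lower in endothelial cells of both Tubb3-/- mice and higher in 4 other lineages, with a difference of 1.16 for fibroblasts, 1.501 for mural cells, 0.72 for mesothelial cells and 0.81 for immune cells. In the gated cells of mural-like clusters mural Igf1 was at 23.3, 31.9, 24.2 and 27.2 CPM, and the genotypes overlapped. Endothelial Igf1 was at 15.3 to 21.6 CPM, a share of the fibroblast level like that of the fibroblast markers. Igfbp4 was higher in fibroblasts and lower in endothelial cells (difference 0.89), and higher in immune and lower in endothelial cells (0.54), although immune Igfbp4, at 4.76% of the fibroblast level, was within the range of the fibroblast markers. Igfbp5 was higher in mural cells and lower in mesothelial (0.78) and endothelial cells (1.30). In the gated cells of mural-like clusters it was at 434, 459.9, 399.7 and 386 CPM, the other direction. With lineages from clusters endothelial Igfbp5 overlapped between the genotypes. Igfbp6 was higher in endothelial cells and lower in fibroblasts (1.26), mesothelial (1.42) and epithelial cells (1.83), its endothelial level was 5.95% of the fibroblast level, within the range of the markers, and its endothelial direction turned in the whole-cell libraries alone. Endothelial cells took part in 10 of the 11 differences.

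The 758 cells without a gate gene entered no comparison, and Igfbp2 had a median of 223 CPM there, with 241, 205, 315 and 184 CPM in the 4 mice. Among them, the 13 to 31 cells per mouse in epithelial-like clusters held 1396, 1189, 2017 and 2016 CPM, and those in fibroblast-like clusters 77.6, 34.8, 185 and 86.9 CPM. Thus cells that the Epcam gate missed carried higher Igfbp2 levels than the epithelial gate itself, at 105, 361, 232 and 16.6 CPM.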

How the results depend on the processing

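Of 722 combinations of 53 log2 fold changes with an alternative, 700 kept their direction. Nearly all of these folds had been chosen for having both Tubb3-/- mice on one side of both WT mice. Alternatives that reused the same sums, such as fits without 1 mouse, could therefore hardly turn them, and 700 is no measure of robustness. Most turns came where the alternative changed the cells or libraries used. The 22 that turned were as follows, and the cause was not tested beyond the construction of each alternative. With lineages from clusters, mural Igfbp2 was at -0.24, Igfbp5 at -0.15 and Igf1 at -0.016, Myh11-positive mural Igfbp2 at -0.17, Igfbp5 at -0.13 and Igf1 at -0.074, and endothelial Igfbp6 at -0.61. With gated cells in mural-like clusters only, mural Igfbp5 was at -0.19 and Igf1 at -0.090, and Myh11-positive mural Igfbp5 at -0.19 and Igf1 at -0.13. With a gate of 2 UMIs, mural Igfbp3 was at 0.25, Myh11-positive mural Igfbp3 at 0.30 and endothelial Igfbp6 at -0.45. In whole-cell libraries only, mesothelial Igf1 was at -0.0039, endothelial Igfbp6 at -0.98 and epithelial Igf1r at 0.36. In enriched libraries only, endothelial Igfbp5 was at 1.21 and immune Igfbp7 at -0.23, Igf1 at -0.11 and Igfbp4 at -0.36. Without Tubb3-/- mouse 2, Higd1b-positive mural Igfbp4 was at 0.029, and over the fits without 1 mouse it ranged from -6.59 to 0.029.

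The number of members called between genotypes depended more on the setting. Calls over all genes moved with the setting as well, over the ranges given below. The counts of members are therefore not read as results about the members. With DESeq2 it was 4 in fibroblasts, 2 in mural, 2 in mesothelial and 1 in endothelial cells and 3 in the whole lung, against 0 in each. With no filter on low counts it was 2 in mural, 4 in mesothelial, 3 in endothelial, 3 in epithelial, 4 in immune, 1 in Higd1b-positive mural and 6 in Npnt-positive cells, and 2 for the fibroblast-immune difference. The replicate number as a block gave 6 in fibroblasts, 2 in mural, 3 in mesothelial and 1 in endothelial cells. It gave 1 in the whole lung, 4 in Myh11-positive and 6 in Npnt-positive cells. Same-numbered mice share a sex, so this block also adjusts for sex, which the main fit leaves in its spread. Deviations of same-numbered mice correlated at 0.0732 to 0.305 over lineages. With 2 pairs, the numbers were not taken to pair the mice in any other way. Whole-cell libraries only gave 1 in mural and 1 in Myh11-positive cells, and 2 members higher in endothelial cells; enriched libraries only gave 2 in endothelial and 1 in Npnt-positive cells, and 1 member higher in immune cells. A gate of 2 UMIs gave 2 in mural and 0 in Npnt-positive cells, and 1 member higher in immune cells. A mitochondrial limit of 10% gave 1 in Npnt-positive cells, and keeping doublets 1 in mesothelial cells. Clusters gave 0 in Myh11-positive and 0 in Npnt-positive cells, 8 members higher in fibroblasts and 1 in immune cells, and gated mural-like cells only gave 0 in Myh11-positive cells.

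Leaving out 1 mouse moved the count of members called over 0 to 5 in fibroblasts, 0 to 2 in mural, 1 to 4 in mesothelial, 0 to 1 in immune, 0 to 3 in Higd1b-positive mural and 0 to 6 in Npnt-positive cells, and over 0 to 2 for the fibroblast-immune difference; the remaining mouse of a group was then assumed to vary like the others. Mural calls were 2 without WT mouse 1 or WT mouse 2, immune calls 1 without WT mouse 1, Higd1b-positive calls 1 without WT mouse 1 and 3 without Tubb3-/- mouse 2, and Npnt-positive calls 6 without WT mouse 1 and 3 without WT mouse 2. Over all genes and all settings, calls ranged from 0 to 1532 in fibroblasts, 0 to 842 in mural and 0 to 344 in mesothelial cells. The ranges were 0 to 876 in endothelial, 0 to 162 in epithelial and 0 to 285 in immune cells. In the whole lung the range was 0 to 677, and for the fibroblast-immune difference 0 to 214. Among subsets it was 0 to 48 in Higd1b-positive and 0 to 1118 in Myh11-positive mural cells, and 2 to 1025 in Npnt-positive fibroblasts. Among the lineage contrasts called higher, mural Igf1 turned with lineages from clusters (-0.96), and in whole-cell libraries only mural Igfbp3 (1.52, adjusted p = 0.0796) and mesothelial Igf2 (1.31, adjusted p = 0.406) were no longer called. The main limits are 2 mice per genotype, few mesothelial, epithelial and subset cells, and gates that leave out many cells.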

Other observations

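Fibroblasts carrying Cthrc1, the collagen-rich state of fibrotic lung, were too few under the gate for a comparison, but the cluster assignment gave more of them, 13 to 72 per mouse. There Igfbp3 was at 856, 1328, 607 and 245 CPM (WT mouse 1, WT mouse 2, Tubb3-/- mouse 1, Tubb3-/- mouse 2), against 108, 223, 35.9 and 68.4 CPM in Npnt-positive fibroblasts of the same assignment, so it was higher in the Cthrc1-positive cells of every mouse. Igf1 was at 779, 890.1, 548 and 802 CPM, and the genotypes overlapped, unlike in the Npnt-positive cells at 306, 305, 527 and 609 CPM. Hhip-positive fibroblasts were at 617, 547, 1099 and 1154 CPM of Igf1.

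Cells dropped for carrying gate genes of several lineages differed in Igf1 between clusters. Those in fibroblast-like clusters were at 410.0, 435, 667 and 769.6 CPM and those in mural-like clusters at 45.4, 47.6, 37.5 and 57.5 CPM. The mural-like ones lay above the kept mural-gate cells of the same clusters, at 23.3 to 31.9 CPM, and the fibroblast-like ones overlapped the fibroblast gate, at 385 to 740.3 CPM. Among epithelial cells, those with Cldn4, a gene of the transitional state seen after injury, held 1294, 1380.5, 2462 and 2742 CPM of Igfbp7, and Lamp3-positive cells 325, 259, 357 and 432 CPM, from 4 to 28 cells per mouse.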
